A study of Mus musculus with 12 samples.

Results

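The 10 genes examined here, in mouse dendritic cells, belong to the signalling of cytokine receptors, among them the interleukin 2 (IL-2) receptor, and its feedback. They are the kinase genes Jak1 and Jak2, the transcription factor genes Stat3, Stat5a and Stat5b, and the phosphatidylinositol 3-kinase (PI3K) subunit gene Pik3r1. The others are the feedback inhibitor genes Socs1, Socs2, Socs3 and Cish. All 10 were chosen by gene symbol and were found among the 19937 genes that a probe set of a single symbol represented. RNA was measured on 12 arrays in 4 groups of 3. The cells were IL-2 knockout dendritic cells given curdlan for 6 h, IL-2 knockout cells left untreated, wild-type cells given curdlan for 6 h, and wild-type cells left untreated. All had been grown from bone marrow for 7 days in the cytokine GM-CSF at 200 ng/ml and selected with beads that bind CD11c, with a stated purity above 95%. Curdlan, a beta-glucan like those of fungal walls, is recognised by Dectin-1, the product of Clec7a, and the design asks how IL-2 bears on this dendritic cell response. The strain entry B6.129P2-Il2tm1Hor/J stands on every array, wild type included, and genotypes here follow the genotype entries and sample titles. No label tells if the 3 arrays of a group were separate mice or cultures, so each p-value reflects only the spread among these arrays, which may be technical.

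Cytokine receptors of this class have no kinase of their own. A bound cytokine activates Janus kinases (JAKs) on the receptor tails, the kinases phosphorylate STAT proteins, and the STATs enter the nucleus and switch on genes. The IL-2 receptor acts mainly through JAK1, JAK3 and the paired factors STAT5A and STAT5B, and also through PI3K. The receptor for GM-CSF, on which these cultures depend, acts through JAK2 and the same STAT5 proteins. Cish and the Socs genes are induced by STATs and encode proteins that block the receptor, the kinase or both, which closes a feedback loop.

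The upstream DNA of the inhibitor genes Socs3 and Socs1 is shown because, of the members with an upstream window, they alone held a STAT-type or an interferon-type motif in it. The windows are the 250 bases before a RefSeq transcript start (build GRCm38.p6), and 9 of the 10 members had at least 1 window, 12 windows in all. TTCNNNGAA, the general STAT site, reads the same on both strands and was present in 1 of these 9 members, against 8.13% of all 27025 genes with a window (7.02% of 32851 windows). An interferon response element core, GAAA followed after any 2 bases by GAAA, was searched on both strands, overlapped no TTCNNNGAA match, and was also present in 1 of the 9, against 3.46% of all genes with a window (2.98% of windows). A share of 1 in 9 members is no more than a description of these genes. Capitals mark the matches, and both genes are on the minus strand, printed 5′ to 3′ towards the start. In Socs3, chr11:117969367-117969616, the match TTCTTAGAA lies 154 to 146 bases before the start, and the annotated gene reaches further upstream than this start. In Socs1, chr16:10785537-10785786, the match GAAAGAGAAA lies 83 to 74 bases before the start and a second match, GAAACCGAAA, which shares its first 4 bases with the end of the other, lies 77 to 68 bases before it. A match describes these letters and does not show that a factor binds there.
Socs3: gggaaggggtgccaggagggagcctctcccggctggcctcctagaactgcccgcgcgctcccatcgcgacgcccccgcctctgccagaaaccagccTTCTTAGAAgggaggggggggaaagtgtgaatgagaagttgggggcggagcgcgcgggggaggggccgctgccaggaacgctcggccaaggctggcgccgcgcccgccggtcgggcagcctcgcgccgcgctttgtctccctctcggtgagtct
Socs1: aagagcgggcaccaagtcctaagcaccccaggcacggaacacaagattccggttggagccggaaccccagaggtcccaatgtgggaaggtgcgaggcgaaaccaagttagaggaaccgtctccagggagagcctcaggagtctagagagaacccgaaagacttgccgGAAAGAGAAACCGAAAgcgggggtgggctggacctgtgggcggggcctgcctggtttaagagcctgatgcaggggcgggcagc

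Il2 itself rose with curdlan in wild-type cells (log2 difference 1.77, adjusted p 0.000159) while the knockout difference of -0.13 missed the threshold (adjusted p 0.652), and it was lower in knockout than in wild-type cells with curdlan (-1.48, adjusted p 0.0114). Knockout cells gave log2 signals of 5.87, 5.80 and 5.63 with curdlan and 6.04, 5.88 and 5.77 untreated. Wild-type cells gave 7.80, 7.22 and 6.74 with curdlan and 5.56, 5.37 and 5.53 untreated. Where the probes lie relative to the deleted part of Il2 is not known here, so the knockout signal is no check of the deletion itself. The general dendritic cell genes Itgax (CD11c), H2-Ab1 and Cd74 averaged 12.91 or more in every group, where the median of all values was 6.61 and the lower quartile 5.12. In the same marker list, the group means were lower for Zbtb46 (7.55 to 8.29) and Flt3 (6.78 to 7.70). Of markers of other cell types, 3 of 7 T cell genes (Cd3d, Cd3g and Cd2) and 1 of 8 neutrophil genes (Ly6g) had means below the lower quartile in all 4 groups, as did 4 or 5 of 6 NK cell genes. The other T cell genes did not, with group means of 6.37 to 6.67 for Cd3e and 8.86 to 9.65 for Lat, and neither did S100a8 (7.57 to 7.78) among the neutrophil genes. Of 7 macrophage and monocyte genes, 0 had a mean below the lower quartile in any group. The mean level of that list lay between 11.45 and 11.74 on the 12 arrays, so macrophage-type signal was high in all groups. Array medians lay between 6.59 and 6.64, and no pair of arrays was identical.

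Stat3, Stat5a, Stat5b, Pik3r1, Socs3 and Cish rose with curdlan in both genotypes, and Jak2 in knockout cells. Of the 10 members, 7 rose in knockout cells and 6 in wild-type cells, and 0 fell. The rise was about 2-fold for Stat5a and Socs3 and smaller for Stat5b, Pik3r1, Stat3 and Cish, while Jak1, Socs1 and Socs2 did not pass in either genotype. These calls are from the main fit, which did not use the replicate numbers. By the same rule, an adjusted p under 0.05 in limma, 9.29% of all genes (1853) rose and 13.2% fell in knockout cells. In wild-type cells 7.27% (1449) rose and 12.3% fell. With the replicate number as a block, 8 members passed in each genotype. Socs1 passed in both (adjusted p 0.00186 in knockout and 0.0014 in wild-type cells) and Jak2 in wild-type cells too. The block also raised the counts over all genes. With it, 2873 of 19937 genes rose and 3560 fell in knockout cells. In wild-type cells 1983 rose and 3275 fell. All 3 treated arrays lay above all 3 untreated arrays in 7 members in knockout cells, against 19.4% of all genes, and in 9 members in wild-type cells, against 17%. The opposite order held for 0 members, against 20.8% of all genes in knockout cells and 21% in wild-type cells. The median member difference (treated minus untreated, log2) was 0.39 in knockout cells and 0.46 in wild-type cells, against 0.04 and 0.02 over all genes. In this bulk RNA, a higher signal in each cell and a higher number of cells with the signal cannot be told apart.

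**Figure D1:**
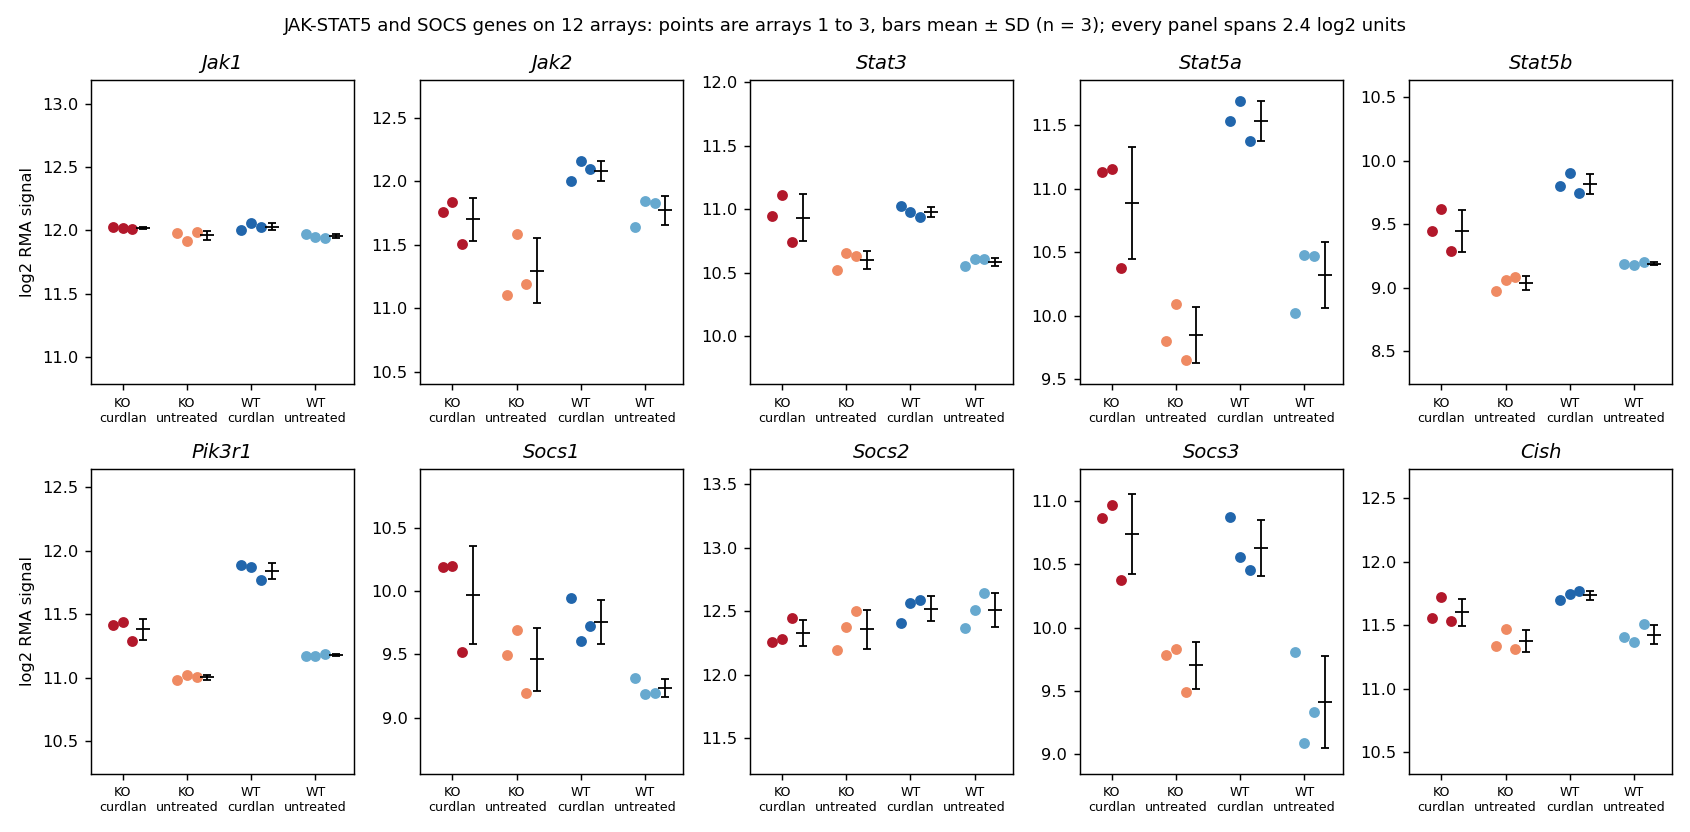
Log2 signal of the 10 genes on each of the 12 arrays, with a panel per gene, the 4 groups on the horizontal axis (KO is IL-2 knockout, WT is wild type), points for arrays 1 to 3 and bars for mean ± SD (n = 3). Stat5a, Stat5b, Pik3r1 and Socs3 stand higher with curdlan in each genotype, Jak1 and Socs2 hardly move, and Pik3r1 with curdlan lies between 11.29 and 11.44 in knockout cells, below 11.77 to 11.88 in wild-type cells.

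Jak1 (GRCm38.p6, chr4:101151974-101265282), the kinase that sits on the beta chain of the IL-2 receptor, varied little across the design. Its log2 signals were 12.03, 12.02 and 12.01 in curdlan-treated knockout cells and 11.98, 11.92 and 11.99 in untreated knockout cells. They were 12.004, 12.06 and 12.03 in curdlan-treated wild-type cells and 11.97, 11.95 and 11.94 in untreated wild-type cells. The treated arrays lay above the untreated ones in each genotype, but the differences were small, at 0.06 in knockout cells (95% interval -0.04 to 0.16, adjusted p 0.347) and 0.07 in wild-type cells (-0.02 to 0.17, adjusted p 0.281).

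Jak2 (chr19:29251803-29313095), the kinase of the GM-CSF and interferon gamma receptors, gave 11.76, 11.83 and 11.51 in curdlan-treated knockout cells and 11.11, 11.59 and 11.19 in untreated knockout cells. Wild-type cells gave 12.001, 12.16 and 12.09 with curdlan and 11.64, 11.84 and 11.83 untreated. The wild-type groups did not overlap, whereas knockout untreated array 2 stood above treated array 3. Jak2 rose in knockout cells by 0.41 ± 0.12 (SE, adjusted p 0.0345) and differed by 0.31 in wild-type cells (adjusted p 0.0999). With the replicate number as a block, which compares each treated array with its same-numbered untreated array, the wild-type difference passed (adjusted p 0.019). The knockout call was lost when only the 6 knockout arrays were fitted (adjusted p 0.089) and without curdlan-treated knockout array 1 (0.103) or 2 (0.132) or untreated knockout array 1 (0.139) or 3 (0.114).

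Stat5a (chr11:100859351-100885169), one of the paired STAT5 factors, changed most among the STAT members. With curdlan, knockout cells gave 11.13, 11.15 and 10.38, against 9.80, 10.09 and 9.65 without it. In wild-type cells the signals were 11.54, 11.69 and 11.37 with curdlan and 10.02, 10.47 and 10.47 untreated. Treated and untreated arrays did not overlap in either genotype, and knockout treated array 3 stood apart from its group on the low side. The rise was 2.06-fold in knockout cells (log2 1.04 ± 0.20, SE, adjusted p 0.00497) and 2.31-fold in wild-type cells (1.21 ± 0.20, SE, adjusted p 0.00194). Without curdlan-treated knockout array 3 the knockout rise was 1.29 on the log2 scale.

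Stat5b (chr11:100780731-100859004), its paralogue, moved less. Knockout cells gave 9.44, 9.62 and 9.29 with curdlan and 8.97, 9.06 and 9.08 untreated. Wild-type cells gave 9.80, 9.90 and 9.75 with curdlan and 9.18, 9.18 and 9.20 untreated. No array of one group reached into another group, so the order of the groups was curdlan-treated wild type, curdlan-treated knockout, untreated wild type, untreated knockout. The rise was 0.41 ± 0.08 in knockout cells (SE, adjusted p 0.00429) and 0.63 ± 0.08 in wild-type cells (SE, adjusted p 0.000302), or 1.33-fold and 1.55-fold.

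Stat3 (chr11:100886806-100939594), which carries signals of the IL-6 and IL-10 receptors, rose by 0.33 ± 0.08 in knockout cells (SE, adjusted p 0.015) and by 0.39 ± 0.08 in wild-type cells (SE, adjusted p 0.0062). Its signals were 10.95, 11.12 and 10.74 in curdlan-treated knockout cells and 10.52, 10.66 and 10.63 in untreated knockout cells. Wild-type cells gave 11.02, 10.98 and 10.94 with curdlan and 10.55, 10.61 and 10.61 untreated. The treated groups overlapped each other, as did the untreated groups. The knockout call was lost when only the knockout arrays were fitted (adjusted p 0.063), without curdlan-treated knockout array 2 (0.0592) and without untreated knockout array 1 (0.0655).

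Stat5b, Stat5a and Stat3 are neighbours on chromosome 11, in that order, with 346 bases between the annotated genes Stat5b and Stat5a, 1636 bases between Stat5a and Stat3, and 0 annotated genes in either gap. In wild-type cells the 95% interval of the rise was 0.46 to 0.80 for Stat5b, 0.77 to 1.65 for Stat5a and 0.22 to 0.57 for Stat3. In knockout cells it was 0.24 to 0.58 for Stat5b, 0.60 to 1.48 for Stat5a and 0.15 to 0.51 for Stat3. Stat5a and Stat5b are close in sequence, the probe sequences were not used here, and how far RNA of one adds to the signal of the other was not tested.

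Pik3r1 (chr13:101680761-101768217), which encodes the p85 alpha regulatory subunit of PI3K, had the smallest standard error in the fit among the members that rose. In knockout cells the signals were 11.41, 11.44 and 11.29 with curdlan and 10.98, 11.02 and 11.00 untreated. In wild-type cells they were 11.88, 11.87 and 11.77 with curdlan and 11.17, 11.17 and 11.19 untreated. As with Stat5b, the 4 groups did not overlap and stood in the same order. Pik3r1 rose 1.30-fold in knockout cells (log2 0.38 ± 0.06, SE, adjusted p 0.000996) and 1.58-fold in wild-type cells (0.66 ± 0.06, SE, adjusted p 1.58e-05).

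**Figure D2:**
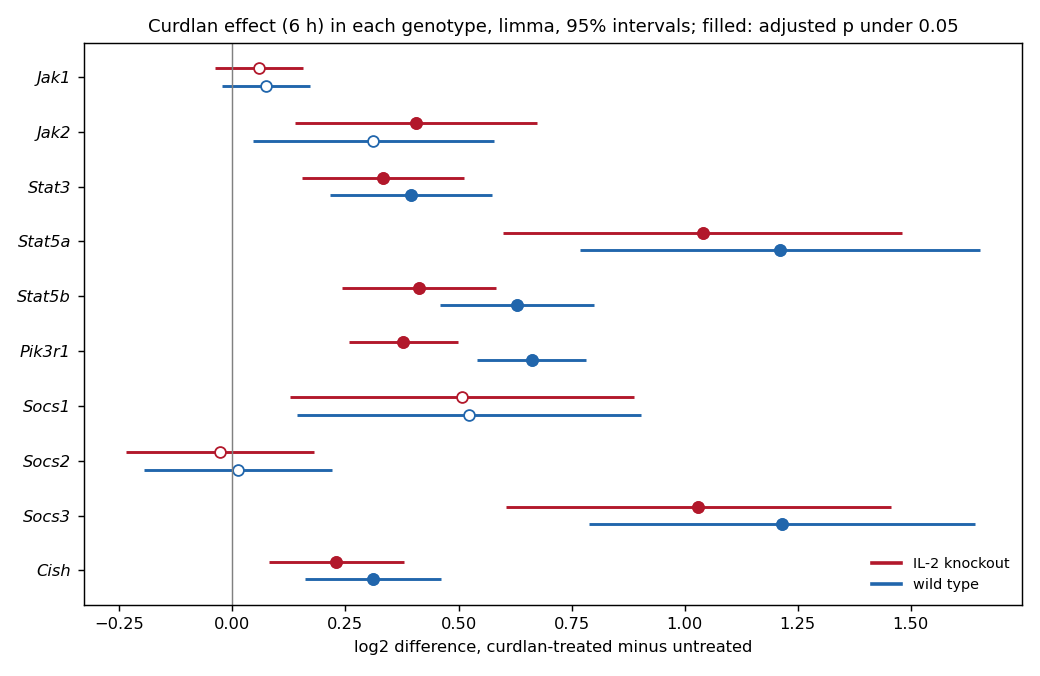
Curdlan effect on each gene in IL-2 knockout cells (red, upper line) and wild-type cells (blue, lower line): the horizontal axis is the log2 difference, treated minus untreated, lines are 95% intervals of the limma fit, and filled points have an adjusted p under 0.05. Stat5a and Socs3 lie near 1 or above in each genotype, and the intervals of Jak1 and Socs2 include 0.

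Among the feedback genes, Socs3 (chr11:117966079-117970336), whose protein blocks JAKs at receptors of the IL-6 type, rose most. Knockout cells gave 10.86, 10.96 and 10.38 with curdlan and 9.79, 9.83 and 9.49 untreated. Wild-type cells gave 10.87, 10.55 and 10.45 with curdlan and 9.80, 9.09 and 9.34 untreated. Every treated array stood above every untreated array of either genotype, while the genotypes overlapped at each treatment. The rise was 2.04-fold in knockout cells (log2 1.03 ± 0.19, SE, adjusted p 0.00436) and 2.32-fold in wild-type cells (1.22 ± 0.19, SE, adjusted p 0.00154). A dimmer Socs3 probe set, which was not used because its mean over the arrays was lower, rose by 0.68 in knockout cells and 0.75 in wild-type cells (adjusted p 0.0151 and 0.00885 over all probe sets).

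Socs1 (chr16:10783808-10785536), an inhibitor of JAK1 and JAK2 that limits interferon responses, gave 10.19, 10.20 and 9.52 in curdlan-treated knockout cells and 9.50, 9.69 and 9.20 in untreated knockout cells. In wild-type cells it gave 9.94, 9.60 and 9.73 with curdlan and 9.32, 9.19 and 9.19 untreated. The wild-type groups did not overlap, and in knockout cells treated array 3 lay below untreated array 2. The differences of 0.51 in knockout cells and 0.52 in wild-type cells missed the threshold (adjusted p 0.0558 and 0.0555). With the replicate number as a block both passed, and each of the 6 same-numbered pairs was higher with curdlan, by 0.32 to 0.69.

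Cish (chr9:107296659-107302784), a STAT5 target in many cell types whose protein competes for STAT5 docking sites on receptors, rose by a modest 0.23 ± 0.07 in knockout cells (SE, adjusted p 0.0329) and 0.31 ± 0.07 in wild-type cells (SE, adjusted p 0.00825). Its signals were 11.55, 11.73 and 11.53 in curdlan-treated knockout cells and 11.33, 11.47 and 11.31 in untreated knockout cells. Wild-type cells gave 11.70, 11.75 and 11.77 with curdlan and 11.41, 11.37 and 11.51 untreated. Treated arrays lay above untreated arrays in each genotype. The knockout call was lost when only the knockout arrays were fitted (adjusted p 0.0826), with every probe set tested (0.0537), and without curdlan-treated knockout array 1 (0.055) or 2 (0.132) or untreated knockout array 1 (0.111) or 3 (0.112). The same alternative of testing every probe set ended the knockout call of Jak2 (0.0597).

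Socs2 (chr10:95383903-95417321), which restrains growth hormone signalling, did not follow the other inhibitors. It gave 12.26, 12.28 and 12.45 in curdlan-treated knockout cells, 12.20, 12.37 and 12.51 in untreated knockout cells, 12.41, 12.56 and 12.59 in curdlan-treated wild-type cells, and 12.37, 12.51 and 12.65 in untreated wild-type cells. All neighbouring groups overlapped. The curdlan difference was -0.03 in knockout cells (95% interval -0.23 to 0.18, adjusted p 0.851) and 0.01 in wild-type cells (-0.20 to 0.22, adjusted p 0.95). A second Socs2 probe set, which averaged 9.63 where the one used averaged 12.43, differed by 0.14 in knockout cells and 0.19 in wild-type cells (adjusted p 0.43 and 0.355 over all probe sets).

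Treated and untreated arrays of the same number were also compared pair by pair. Stat5a, Stat5b, Stat3, Pik3r1, Socs1, Socs3, Cish, Jak1 and Jak2 were higher with curdlan in each of the 3 pairs of each genotype. The share of all genes with this pattern was not counted, so it only describes these members. Knockout pair 3 had the smallest change of the knockout pairs in Jak1 (0.02), Stat3 (0.11), Stat5a (0.73), Stat5b (0.20), Pik3r1 (0.28), Socs1 (0.32) and Socs3 (0.88). In Cish it was also the smallest, by little (0.218, against 0.219 in knockout pair 1). Its curdlan-treated array was the lowest of its group in 9 of the 10 members, where it was the lowest in 42.5% of all genes. Over the 1035 genes that rose with curdlan in both genotypes, the median change was 0.40 in knockout pair 3, against 0.60 and 0.62 in knockout pairs 1 and 2 and 0.61, 0.56 and 0.54 in the wild-type pairs. Without curdlan-treated knockout array 3, 8 members passed in knockout cells, Socs1 among them (0.73, adjusted p 0.00358). In that fit 2464 of all genes rose and 2785 fell in knockout cells.

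**Figure D3:**
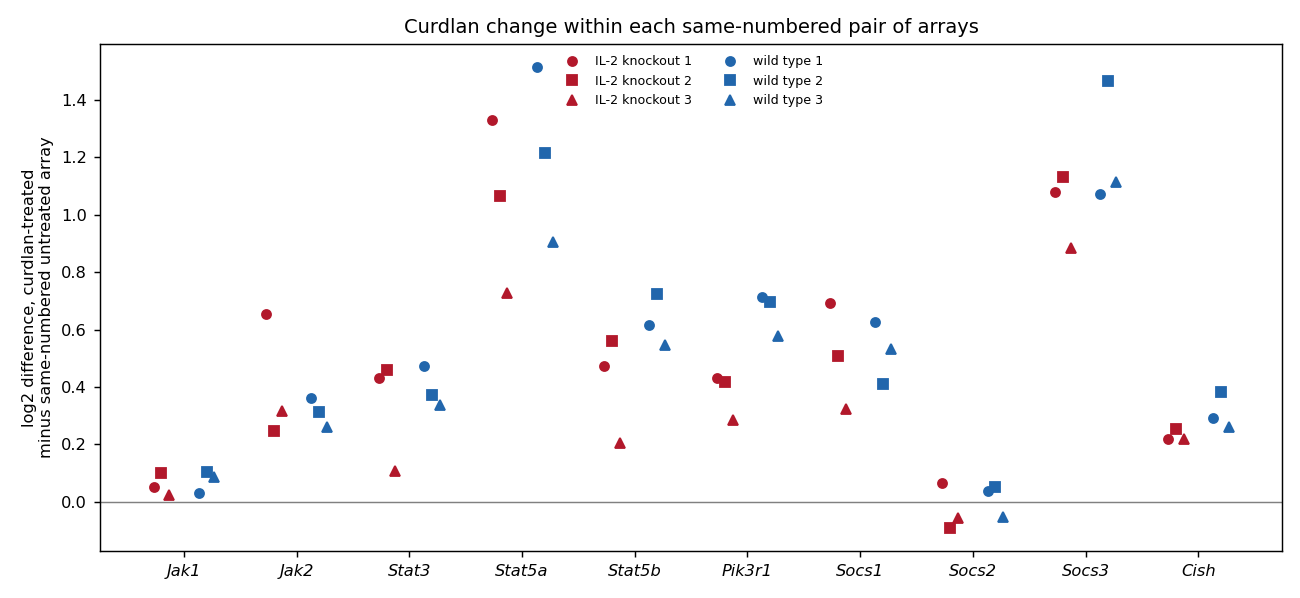
Difference between each curdlan-treated array and the untreated array of the same number, in log2 units on the vertical axis, for each gene, with red symbols for the 3 IL-2 knockout pairs and blue for the 3 wild-type pairs. All pairs lie above 0 except 3 of the 6 Socs2 pairs. Knockout pair 3 (red triangles) is the lowest knockout pair for Jak1, Stat3, Stat5a, Stat5b, Pik3r1, Socs1 and Socs3 and, by little, for Cish.

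Marker genes moved with curdlan as well. Of 9 dendritic cell markers, 4 rose in knockout cells and 3 in wild-type cells, among them the costimulatory gene Cd86 (1.26 and 1.03) and the chemokine receptor gene Ccr7 (1.09 and 0.99). Of 8 stroma and fibroblast markers, 4 rose in knockout cells and 3 in wild-type cells, and the list was not uniform. Kdr averaged 10.00 with curdlan and 8.46 untreated in knockout cells, and 9.42 and 7.72 in wild-type cells. The fibroblast gene Pdgfra averaged 5.61 and 5.47 in knockout cells, and 5.57 and 5.58 in wild-type cells. The mean log2 level of the stroma and fibroblast list was 6.95 to 7.34 on curdlan-treated and 6.53 to 6.74 on untreated knockout arrays, and 6.94 to 7.05 on curdlan-treated and 6.49 to 6.54 on untreated wild-type arrays. The mean of the fibroblast gene Dcn lay below the lower quartile in every group but curdlan-treated knockout cells, where it was 5.13. The mean level of the dendritic cell list was 11.55 to 11.62 on curdlan-treated and 11.05 to 11.27 on untreated knockout arrays, and 11.63 to 11.71 on curdlan-treated and 11.32 to 11.38 on untreated wild-type arrays. The part of these markers in the members' rise was not tested.

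Between the genotypes, with curdlan, Pik3r1 was lower in knockout cells and was the only member to pass. Its level was 72.8% of that in wild-type cells (log2 difference, knockout minus wild type, -0.46 ± 0.06, SE, adjusted p 0.00579). Over all genes 0.517% were lower and 0.105% higher by this rule, and 0 members were higher. Stat5b (-0.37, 95% interval -0.54 to -0.20, adjusted p 0.062), Stat5a (-0.65, -1.09 to -0.21, adjusted p 0.206) and Jak2 (-0.38, -0.65 to -0.12, adjusted p 0.222) did not pass, although the 3 knockout arrays lay below the 3 wild-type arrays in each. That made 4 of 10 members with the knockout arrays wholly below, against 6.84% of all genes, and 0 members with them wholly above, against 7.71%. No member lies on chromosome 3, which carries Il2. On the same arrays, the mean level of the dendritic cell list was also lower in knockout cells (the ranges above). The median difference of its genes was -0.01, and 0 of its 9 genes passed by genotype. Its genes went both ways. Cd86 averaged 10.82 in knockout and 11.26 in wild-type cells with curdlan, Ccr7 12.59 and 12.94, and Zbtb46 8.08 and 8.29. Cd74 (13.20 and 13.23) and H2-Aa (13.09 and 13.10) were lower by little. Flt3 averaged 7.70 and 7.49, Itgax 12.96 and 12.91, H2-Ab1 13.21 and 13.18, and Clec7a 12.59 and 12.57. The T cell list (7 genes tested) averaged 6.30 to 6.42 in knockout and 6.17 to 6.42 in wild-type cells with curdlan, and 1 of its genes, the adaptor gene Lat, was higher in knockout cells (0.62, adjusted p 0.0426). The part of either list in these differences was not tested.

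The Pik3r1 difference was the same, -0.46, when only the 6 curdlan-treated arrays were fitted and with the replicate number as a fixed block, but it missed the threshold in both fits (adjusted p 0.0781 and 0.0583). With each single array left out it passed, between -0.50 and -0.41. Without curdlan-treated knockout array 3, it was -0.41 (adjusted p 0.024), while Stat5a was -0.39 (adjusted p 0.302), Stat5b -0.29 (adjusted p 0.121) and Jak2 -0.29 (adjusted p 0.347). Stat5b passed without curdlan-treated knockout array 2 (-0.45, adjusted p 0.0464), with genes below the median left out (-0.37, adjusted p 0.0432) and with array weights (-0.40, adjusted p 0.00825). Array weights also let Stat5a (-0.64, adjusted p 0.0435) and Jak2 (-0.40, adjusted p 0.034) pass.

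Of the 4 inhibitor genes, 0 passed by genotype with curdlan. Socs3 differed by 0.11 between knockout and wild-type cells (95% interval -0.32 to 0.53, adjusted p 0.899), Socs1 by 0.21 (-0.17 to 0.59, adjusted p 0.725), Cish by -0.13 (-0.28 to 0.02, adjusted p 0.502) and Socs2 by -0.19 (-0.40 to 0.02, adjusted p 0.489). Stat3 differed by -0.05 (-0.23 to 0.13, adjusted p 0.894) and Jak1 by -0.01 (-0.11 to 0.09, adjusted p 0.964). These intervals leave room for differences of up to 0.53 in Socs3 and 0.59 in Socs1, so the genotypes were not shown to be alike.

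**Figure D4:**
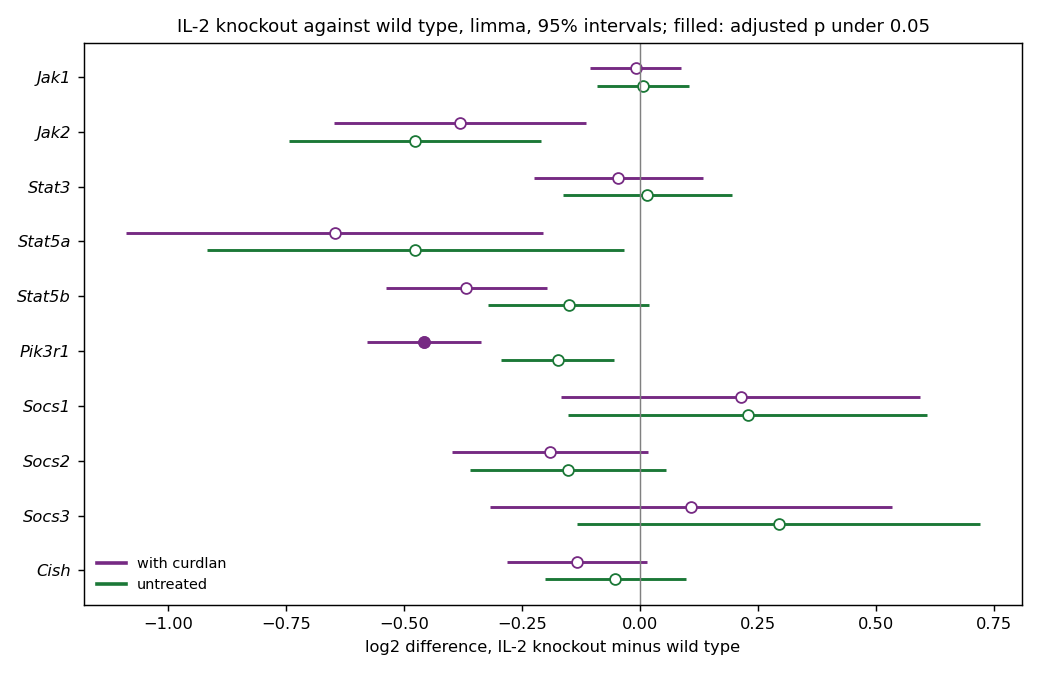
Genotype difference of each gene in curdlan-treated cells (purple, upper line) and untreated cells (green, lower line): the horizontal axis is the log2 difference, IL-2 knockout minus wild type, lines are 95% intervals of the limma fit, and filled points have an adjusted p under 0.05. Pik3r1 with curdlan, at -0.46, is the only filled point, and Stat5a, Stat5b, Jak2 and Pik3r1 lie to the left of 0 in both states.

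In untreated cells 0 of 10 members passed by genotype in limma, while 3 had an unadjusted p under 0.05. Over all genes, 1.19% were lower and 0.231% higher in knockout cells at the adjusted threshold, and 10.6% had an unadjusted p under 0.05. Jak2 differed by -0.48 (95% interval -0.74 to -0.21, adjusted p 0.0922), Stat5a by -0.48 (-0.92 to -0.04, adjusted p 0.408), Pik3r1 by -0.18 (-0.30 to -0.05, adjusted p 0.196) and Stat5b by -0.15 (-0.32 to 0.02, adjusted p 0.565). The knockout arrays lay wholly below the wild-type arrays in Jak2, Pik3r1 and Stat5b, 3 of 10 members, against 7.88% of all genes, and wholly above in 0 members, against 7.55%. Jak2 passed without untreated knockout array 2 (-0.62, adjusted p 0.038) and with array weights (-0.54, adjusted p 0.0164). Socs3 (0.29, adjusted p 0.722) and Socs1 (0.23, adjusted p 0.789) had higher means in untreated knockout cells, with overlapping arrays. The comparisons with and without curdlan share no array, but each shares arrays with the curdlan comparisons above. Both come from the same fit, and same-numbered treated and untreated arrays correlated within a genotype. A like direction in both states is therefore not an independent repeat.

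Whether curdlan acted differently in the genotypes was tested by the interaction, the knockout response minus the wild-type response. In limma 0 of 10 members and 0 of 19937 genes (0%) passed, and 2.77% of all genes had an unadjusted p under 0.05. Il2, whose rise passed only in wild-type cells, also missed the threshold here (-1.89, 95% interval -2.51 to -1.28, adjusted p 0.357). A count of 0 therefore does not show that curdlan acted alike in the genotypes. Pik3r1 was the only member with an unadjusted p under 0.05, with a smaller rise in knockout cells (-0.28, 95% interval -0.45 to -0.11, unadjusted p 0.00356, adjusted p 0.9998). Stat5b followed at -0.22 (-0.46 to 0.02). The intervals of Stat5a (-0.80 to 0.45) and Socs3 (-0.79 to 0.42) were wide.

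The other members of the pathway lists give the setting. Of 113 listed genes, 107 were tested, and 43 rose and 12 fell with curdlan in knockout cells, while 42 rose and 8 fell in wild-type cells. Their median difference was 0.18 in knockout cells and 0.14 in wild-type cells. Among other JAK and STAT genes, 3 of 4 rose in knockout cells and 2 of 4 in wild-type cells. Stat2, which carries type I interferon signals, rose by 1.35 and 1.37 (adjusted p 6.17e-05 and 4.62e-05), and Stat4, which carries IL-12 signals, by 1.33 and 1.15 (adjusted p 0.0145 and 0.0275). Tyk2 rose by 0.33 in knockout cells (adjusted p 0.0298). Jak3 had no usable probe set and was not analysed here.

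Of 15 further genes that restrain the pathway, 2 rose and 2 fell in knockout cells, and 3 rose and 1 fell in wild-type cells. Usp18, which dampens the type I interferon receptor, rose by 1.83 and 1.79 (adjusted p 1.78e-06 and 1.12e-06). Pias4, of a family that binds STATs in the nucleus, rose by 0.25 and 0.22 (adjusted p 0.0252 and 0.0414), and Pias3 rose by 0.39 in wild-type cells (adjusted p 0.01). Socs6 fell by 0.42 and 0.33 (adjusted p 0.00037 and 0.00144), Socs4 fell by 0.25 in knockout cells (adjusted p 0.0157), and Socs5 and Socs7 did not pass. In the PI3K and Akt list of 13 tested genes, 2 rose and 4 fell in knockout cells and 1 rose and 3 fell in wild-type cells. Pik3r5, a regulatory subunit of the gamma type of PI3K, rose by 0.55 in each genotype (adjusted p 0.004 and 0.00369), and the adaptor gene Pik3ap1 rose by 0.24 in knockout cells (adjusted p 0.04). The catalytic gamma subunit gene Pik3cg fell by 0.37 and 0.49, the lipid phosphatase gene Inpp5d (SHIP-1) by 0.32 and 0.47, and the kinase gene Akt1 by 0.23 and 0.20, in knockout and wild-type cells in that order. Of 5 Ras adaptor genes, Grb2 rose in knockout cells (0.23, adjusted p 0.0306) and 0 passed in wild-type cells.

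Among 24 receptor genes, 10 rose and 3 fell in knockout cells and 7 rose and 3 fell in wild-type cells. Il15ra rose by 1.75 and 1.58, Il12rb2 by 0.61 and 0.76 and Il13ra1 by 0.50 and 0.57, in knockout and wild-type cells in that order. Il2rb, the IL-2 receptor beta chain gene, rose by 0.27 and 0.47. Its signal was dim, with group means of 5.01 to 5.48, where the lower quartile of all values was 5.12. Flt3 and Il12rb1 rose in knockout cells, by 0.92 (adjusted p 0.0147) and 0.74 (adjusted p 0.0445), whereas the interferon gamma receptor gene Ifngr1 fell by 0.67 and 0.73. The GM-CSF receptor genes did not pass in either genotype, with differences of -0.03 and -0.05 for Csf2ra, -0.07 and 0.00 for Csf2rb, and 0.01 and 0.03 for Csf2rb2, and neither did Clec7a (-0.08 and 0.04). Of 18 cytokine genes whose receptors use JAKs, 8 rose in knockout cells and 9 in wild-type cells, and 0 fell. Il12b rose by 3.14 and 4.17, Il6 by 2.29 and 2.71, Il15 by 1.68 and 1.71 and Il27 by 0.95 and 0.83.

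Genes known to be induced by STAT3 or STAT5 moved in both directions. Of 10 STAT3-induced genes, 5 rose and 1 fell in knockout cells and 7 rose in wild-type cells. Bcl3 rose by 0.77 and 0.60, Tnfrsf1b by 0.50 and 0.56, Junb by 0.40 and 0.55 and Il10 by 0.51 and 0.53. Il10 was dim, with group means of 4.76 to 5.32, around the lower quartile of 5.12. Of 13 tested STAT5-induced genes, 7 rose and 2 fell in knockout cells and 7 rose and 1 fell in wild-type cells. The cyclin genes Ccnd2 and Ccnd1 rose by 0.93 and 0.72 and by 0.92 and 1.00, and the cytokine genes Lta and Osm by 1.08 and 1.28 and by 0.72 and 0.86. Bcl2, an inhibitor of apoptosis, fell by 0.29 and 0.45, and Myc fell by 0.71 in knockout cells (adjusted p 0.00623). Between the genotypes, 2 of the 107 pathway genes passed with curdlan, Il2 and Il2ra, and 1 passed untreated, Il2ra, all lower in knockout cells. Il2ra, the IL-2 receptor alpha chain and itself a STAT5 target, gave 11.51, 11.42 and 10.96 in curdlan-treated knockout cells against 12.13, 12.27 and 12.07 in curdlan-treated wild-type cells, and 10.91, 10.71 and 10.48 in untreated knockout cells against 11.83, 11.99 and 11.73 in untreated wild-type cells.

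For each member that rose in both genotypes, the 3 genes with the most similar profile were found by the root mean square difference over the 12 arrays after each gene was centred on its own mean. Stat5b and Pik3r1 were each other's nearest gene, at 0.06 log2 units, where the root mean square spread of each over the arrays was 0.31 for Stat5b and 0.32 for Pik3r1. Poglut1 was the next for each (0.07 and 0.06), followed by Akap13 for Stat5b (0.08) and Fchsd2 for Pik3r1 (0.07). Nearest to Stat5a were Nfkbiz (0.13), Traf1 (0.14) and Cd86 (0.16), with a Stat5a spread of 0.67. Nearest to Socs3 were Samd9l (0.12), Pnp (0.17) and Gypc (0.17), with a Socs3 spread of 0.62. Hsd17b11, Rnf115 and Hdac1 came closest to Stat3 (0.04 to 0.05, spread 0.20), and Axl, Cggbp1 and Ociad2 to Cish (0.05 to 0.06, spread 0.16).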

How the data were processed

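RNA from 12 samples was hybridised to 1 array each, from 100 ng of total RNA. The authors deposited log2 values made with RMA, per the submitters' processing notes, which subtracts background, brings arrays to a shared distribution and gives 1 value per probe set. The sources used here name neither its version nor the set of arrays processed jointly. Gene symbols came from the platform annotation. Of 34760 probe sets, 21640 carried 1 symbol, and for the 954 genes with several the probe set with the highest mean over the arrays was used. With limma 3.58.1 (R 4.3.3), 1 model of 4 group means covered the 12 arrays and left 8 residual degrees of freedom. The moderated test was two-sided, p-values were adjusted by Benjamini-Hochberg over all 19937 genes within each comparison, and calls needed an adjusted p under 0.05. The fit was tested on simulated data. No filter on dim genes was applied.

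Values are log2 signals, SD is over 3 arrays and SE is that of the fit. The number of arrays limits the precision. Levels of different genes were not compared, since probes differ in brightness. The named genes were fixed by rule: the 10 members, Il2 and its receptor and GM-CSF receptor genes, up to 4 genes past the threshold with the largest change in each pathway list and comparison, and the 3 genes nearest in profile to each member that rose in both genotypes. Socs5, Socs7, Bcl2, Myc and the marker genes named outside this rule were chosen after their values were seen, and 1 list is not reported here. The members and lists were chosen with earlier results of these data known. After group means were removed, same-numbered treated and untreated arrays correlated across genes at 0.49, 0.53 and 0.60 in knockout cells. In wild-type cells they correlated at 0.45, 0.37 and 0.40. Arrays of different numbers gave -0.48 to 0.02 and -0.35 to 0.06. The numbers were therefore taken as pairs within a genotype in the pair comparison and the block, although no label states this. The main fit did not use the pairs. Between genotypes, untreated arrays of the same number correlated at 0.22, 0.11 and 0.25, and those of different numbers at -0.28 to 0.0. Treated arrays correlated at 0.17, -0.13 and 0.33 with the same number and at -0.30 to 0.21 with different numbers. Alternatives were other samples in the fit, replicate blocks, filters, normalisations, variance models, probe set choices and each array left out. Sequences are from RefSeq, GRCm38.p6.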

Additional observations from a re-analysis of the deposited data

How the results depend on the processing

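Of 1140 single-gene results under the alternatives, 1094 stayed on the same side of the threshold, 17 lost a call, 29 gained one and 0 reversed; a sign change between values that both missed the threshold was not counted as a reversal. Centring or renormalising the arrays and averaging probe sets changed no call of a member. Fitting only the arrays compared gave 4 members for curdlan in knockout cells and 0 for genotype with curdlan, where 7 and 1 passed, and lowered the counts over all genes to 15 from 124 (genotype with curdlan) and to 70 from 283 (genotype untreated). The fixed replicate block gave 0 members and 57 genes for genotype with curdlan, where Pik3r1 had an adjusted p of 0.0583. For genotype untreated this block gave 393 genes and 0 members. Whether arrays of the same number share more than that number between genotypes is not stated in the labels. For curdlan the block gave 8 members in each genotype, adding Socs1 in knockout cells and Socs1 and Jak2 in wild-type cells. Over all genes it gave 6433 in knockout and 5258 in wild-type cells, where 4481 and 3899 passed in the main fit. The replicate block changed no other call. Array weights gave 4 members and 1402 genes for genotype with curdlan, and 1 member (Jak2) and 615 genes untreated. Keeping genes with a mean above the median gave 2 members for genotype with curdlan. Testing every probe set gave 28 and 147 genes by genotype, with curdlan and untreated. With single arrays left out, members past the threshold ranged from 4 to 8 (curdlan, knockout; 4 without curdlan-treated knockout array 2 or untreated knockout array 1), 6 to 7 (curdlan, wild type), 1 to 2 (genotype with curdlan), 0 to 1 (genotype untreated) and 0 to 0 (interaction). Over all genes they ranged from 2041 to 5284, 2625 to 4011, 19 to 172, 52 to 447 and 0 to 2. The lowest came without curdlan-treated knockout array 2 (2041), curdlan-treated wild-type array 1 (2625), curdlan-treated wild-type array 2 (19) and untreated wild-type array 2 (52). The causes were not tested. With 3 arrays a group, small differences in members with wide spread, such as Socs1 and Socs3 between genotypes, are not resolved.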
